A study of Mus musculus with 188 samples.

Results

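The transcriptome of organotypic brain-slice cultures was compared between 2 doses of heme-albumin, 50 μM and 200 μM, after 24 h of exposure. The comparison held the 20 libraries whose treatment label gave these doses, 10 at each dose, out of 188 libraries of the series, and the libraries of unexposed cultures did not enter it. All slices came from wildtype C57BL/6J mice of both sexes, were kept on membrane inserts with a pair of coronal slices each, and received the compound from day 7 of culture. Heme-albumin is hemin loaded onto human albumin, the low-affinity plasma carrier of heme. Heme and albumin were added as a single preparation, so their doses rose together and their effects cannot be told apart. Slices hold neurons, glia and resident macrophages without blood flow, and the labels name no brain region for a library.

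Free heme is degraded by heme oxygenases to biliverdin, carbon monoxide and iron, and intracellular heme lowers its own synthesis at the step of 5-aminolevulinate synthase. Heme and the oxidants it generates also release the transcription factor NRF2 from its repressor, which induces genes of glutathione synthesis, thiol repair and detoxification. A separate arm, the integrated stress response, acts through the factor ATF4 on amino acid transporters, asparagine synthesis and the aminoacyl-tRNA synthetases. Chaperones of the endoplasmic reticulum are controlled by another branch, the unfolded protein response.

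Total counts were 14850055 to 35597838 per library at 50 μM and 13421393 to 28939450 at 200 μM. Pairs of libraries of a dose differed from each other by at least 6.34 times the counting noise (chi-square per degree of freedom), so each was counted as a separate library. That does not show that they came from different animals. Each dose held 5 libraries whose name carries the letter M and 5 with the letter W. Letter and number form a code, and a code was repeated within each dose. It was W3 for replicates 7 and 8 at 50 μM, and W4 for replicates 8 and 9 at 200 μM. Summed Y-linked transcripts were 177 to 209 CPM (counts scaled to a common library size by the trimmed mean of M values) in the M libraries and 0 in every W library. The first principal component held 40.2% of the variance, and the doses overlapped on it. Replicates 8 and 5 at 50 μM lay farthest out on it, and the 25 genes at that end included the neuropeptide genes Adcyap1, Gal and Trh, the choroid plexus genes Clic6 and Folr1 and the collagen gene Col1a1.

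Between the doses, 59 of 14855 tested genes passed an adjusted p of 0.05 (0.397% of the genes tested), 33 higher at 200 μM (0.222%) and 26 lower (0.175%). Differences were small. Among the genes that passed, log2 fold changes ran from -0.99 to 0.90 with a median size of 0.35. Only 6 of the 59 reached 1.5-fold and 0 reached 2-fold. The tests were edgeR's quasi-likelihood tests with Benjamini-Hochberg adjustment over all tested genes. Every adjusted p in this report comes from such tests unless DESeq2 is named with it. Over all tested genes the median log2 fold change was -0.01 and 48.3% of genes were higher at 200 μM. At an unadjusted p under 0.05 there were 1974 genes (13.3%). The levels of the 10 libraries at 200 μM did not overlap those of the 10 at 50 μM for 12 genes (0.0808% of the genes tested). Of these, 5 (0.0337%) lay wholly higher at 200 μM, namely Ephx1, Lars, Hspa9, Slc7a5 and Znhit6. Another 7 (0.0471%) lay wholly lower, namely Alas1, Fkbp5, Ggta1, Scrg1, Abat, Nkain2 and Gm28035. All 12 were among the 59. The count of calls depended on single libraries. It was 33 without replicate 2 at 200 μM, 39 without replicate 1 or without replicate 3 at 200 μM, 97 without replicate 3 at 50 μM and 106 without replicate 8 at 200 μM. Of the 59 genes, 33 passed in all 20 fits that left out 1 library, 17 in at least 10 of them and 9 in fewer. DESeq2 called 305 of the 14855 genes, 58 of the 59 among them, and its counts of list members below are to be read beside that share. Both doses carry the same codes in the library names, and with the code as a block 11 genes passed, with the replicate number as a block 15. Of the lists described next, the synthetases and ER chaperones then had 0 called members under either block, the ATF4 list 0 and 1, and the NRF2 list 2 and 1.

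**Figure D1:**
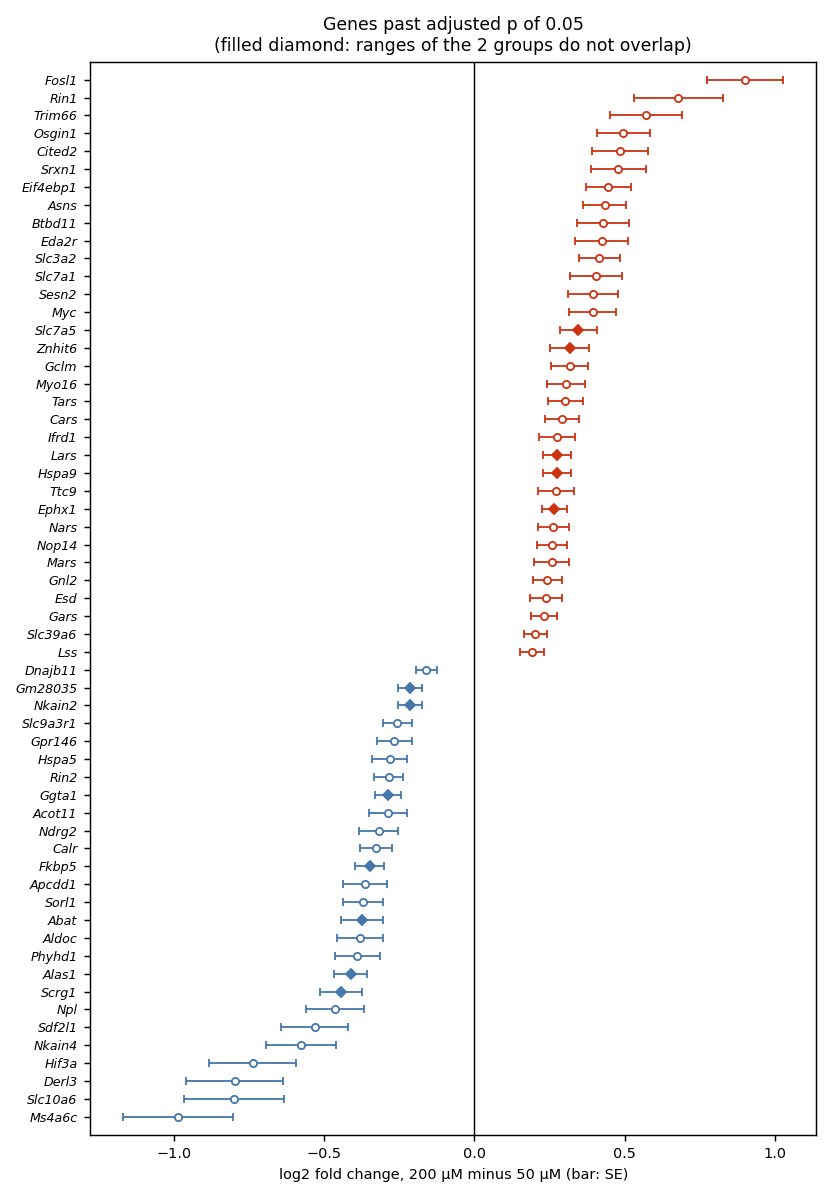
Log2 fold change (200 μM minus 50 μM, horizontal axis) with its standard error for each of the 59 genes past an adjusted p of 0.05. Filled diamonds mark the 12 genes whose levels do not overlap between the doses. Fosl1 lies highest at 0.90 and Ms4a6c lowest at -0.99.

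Of 30 tested targets of NRF2, 5 rose and 0 fell, beside 0.222% and 0.175% of all tested genes, and the other 25 did not pass. In all, 28 had a positive fold change, and their median log2 fold change was 0.18 against -0.01 over all tested genes. Srxn1, which encodes the enzyme that repairs overoxidized peroxiredoxins, ranged from 110.3 to 159 CPM at 50 μM (median 128) and from 144 to 239 CPM at 200 μM (median 182). Its ranges overlapped, with 7 of 10 libraries at 200 μM above every library at 50 μM (log2 fold change 0.48, SE 0.092, adjusted p = 0.0193). Osgin1, a growth regulator induced by oxidative stress, ranged from 9.75 to 14.9 CPM (median 11.5) and from 13.1 to 20.8 CPM (median 16.5). It rose by 0.50 (SE 0.0889, adjusted p = 0.0134), and 8 of 10 libraries at the higher dose lay above the range of the lower dose. Gclm, the modifier subunit of the rate-limiting enzyme of glutathione synthesis, ranged from 156 to 206 CPM (median 188) and from 202 to 271 CPM (median 227). It rose by 0.32 (SE 0.0619, adjusted p = 0.0195). Ephx1, microsomal epoxide hydrolase, ranged from 151 to 179 CPM at 50 μM (median 170.4) and from 185 to 225 CPM at 200 μM (median 202), without overlap (log2 fold change 0.27, SE 0.0418, adjusted p = 0.00693). Esd, which hydrolyses S-formylglutathione, went from a median of 187 to 224 CPM (0.24, SE 0.053, adjusted p = 0.0446). It passed in 6 of the 20 fits that left out 1 library, whereas the other 4 members passed in all 20. Txnrd1, thioredoxin reductase, was at 373 ± 33.3 CPM and 441 ± 32 CPM (SD, n = 10 each) and just missed the threshold (adjusted p = 0.0543). Slc7a11, the cystine importer, spread widely at 50 μM, from 223 to 622 CPM against 445 to 689 CPM at 200 μM (log2 fold change 0.44, SE 0.138, adjusted p = 0.16).

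**Figure D2:**
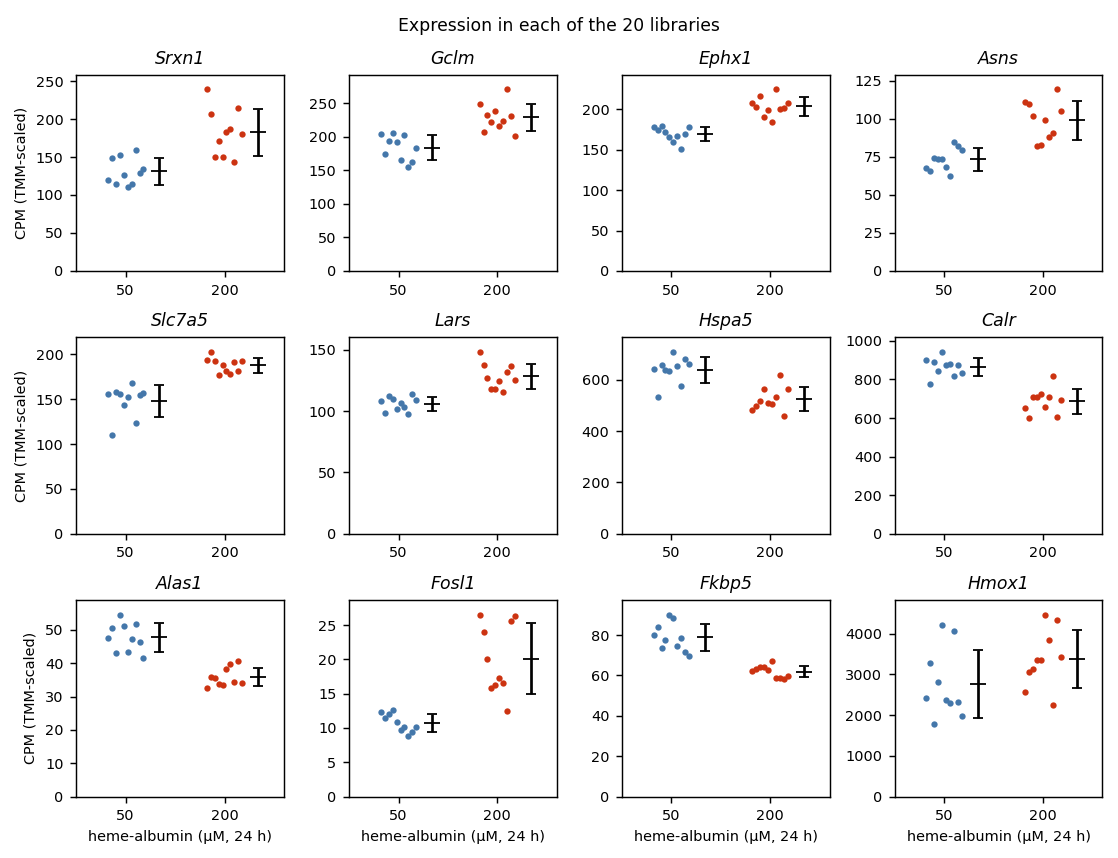
CPM of 12 genes in each of the 20 libraries (points), with mean and SD (bars), at 50 μM and 200 μM heme-albumin. Ephx1, Slc7a5, Lars, Alas1 and Fkbp5 have no overlap between doses, whereas Hmox1 overlaps over most of its range.

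Of 27 tested genes that answer to amino acid shortage and ATF4, 5 rose (beside 0.222% of all tested genes), 0 fell and the other 22 did not pass. In all, 25 had a positive fold change, and the median was 0.35. Asns, asparagine synthetase, ranged from 62.5 to 84.9 CPM at 50 μM (median 73.6) and from 82.1 to 119.5 CPM at 200 μM (median 101). It rose by 0.43 on the log2 scale (SE 0.0723, adjusted p = 0.00869), and 8 of 10 libraries at 200 μM exceeded the range at 50 μM. The other 4 members that rose encode transporters and a nutrient sensor. Slc3a2, the heavy chain shared by several amino acid exchangers, went from a median of 345 CPM (324 to 388) to 471 CPM (374 to 575), a rise of 0.42 (SE 0.068, adjusted p = 0.00836). Slc7a5, the large neutral amino acid light chain that pairs with it, lay at 110.1 to 168 CPM and at 177 to 203 CPM, without overlap (0.35, SE 0.0616, adjusted p = 0.0134). Slc7a1, a cationic amino acid transporter, went from 94.2 to 127 CPM by median (0.41, SE 0.0865, adjusted p = 0.0344) and passed in 7 of the 20 fits that left out 1 library. Sesn2, a leucine sensor that restrains mTORC1, went from 59.1 to 77.2 CPM by median (0.40, SE 0.0828, adjusted p = 0.0295) and passed in 13 of 20. The number of called members was 3 without any 1 of replicates 1, 2 and 7 at 50 μM or replicates 1, 2, 9 and 10 at 200 μM, 8 without replicate 4 at 200 μM and 11 without replicate 8 at 200 μM. Chac1, a glutathione-degrading ATF4 target, had the largest fold change of the list at 0.85 (SE 0.212) but ranged from 6.24 to 25.7 CPM at 200 μM and did not pass (adjusted p = 0.0692). Stc2 did not pass either, at 5.75 ± 0.792 and 8.37 ± 2.07 CPM (adjusted p = 0.0565). Eif4ebp1, the translation repressor 4E-BP1, stood outside the list and rose by 0.45 (SE 0.0755, adjusted p = 0.0092), from 30.6 to 40.1 CPM at 50 μM to 36.1 to 59.0 CPM at 200 μM.

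Of 20 tested cytosolic aminoacyl-tRNA synthetases, which charge tRNAs for translation, 6 rose (beside 0.222% of all tested genes), 0 fell and the other 14 did not pass. In all, 19 had a positive fold change, and the median was 0.19. Lars ranged from 97.5 to 114 CPM at 50 μM and from 116 to 148 CPM at 200 μM, and its groups did not overlap (0.28, SE 0.0469, adjusted p = 0.0092). Tars rose by 0.30, Cars by 0.29, Nars by 0.26, Mars by 0.26 and Gars by 0.23, with adjusted p from 0.0193 to 0.0494. Their ranges overlapped, with 7 to 9 of the 10 libraries at 200 μM above all libraries at 50 μM. Mars had the largest p of the 59 genes and passed in 6 of 20 fits that left out 1 library. Over all 20 members the fold changes ran from -0.01 to 0.30.

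The RefSeq promoter table (GRCm38.p6) held windows for 43 of the 59 genes, and the 250 bases before the start were searched for the core of the C/EBP-ATF site, TGATGNAA, on both strands. It was found in 8 of 30 windows of the ATF4 list (26.7%), against 3.45% of all 32851 windows. Of the windows of the genes that passed, 3 of 56 held it (5.36%), those of Asns and of the synthetases Gars and Tars, and of the 5 windows of called ATF4 genes 1 held it. These 3 stretches are shown because they held the match, and their share of 5.36% is close to the 3.45% of all windows. The matched letters are in capitals, and a match describes the letters and no binding.
Asns, chr6:7693210-7693272, minus strand: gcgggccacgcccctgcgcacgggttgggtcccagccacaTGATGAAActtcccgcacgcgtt
Gars, chr6:55037931-55038000, plus strand: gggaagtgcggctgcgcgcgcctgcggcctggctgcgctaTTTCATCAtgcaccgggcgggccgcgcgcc
Tars, chr15:11399659-11399713, minus strand: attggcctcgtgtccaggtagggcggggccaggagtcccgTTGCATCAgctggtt
In Asns the match lies 23 bases before the start in the forward orientation, and in Gars and Tars 30 and 15 bases before it in the reverse orientation. The antioxidant response element core bound by NRF2 partners, TGACNNNGC, was searched in the same way. It was found in 8 of 32 windows of the NRF2 list (25%) and in 10.2% of all windows. It was found in 8 of the 56 windows of genes that passed (14.3%), those of the raised genes Asns, Sesn2, Slc7a1, Eda2r, Rin1 and Gclm and of the lowered genes Calr and Ndrg2. Of the 5 NRF2 targets that rose, Gclm alone held it, 134 bases before the start in the reverse orientation.
Gclm, chr3:122245383-122245471, plus strand: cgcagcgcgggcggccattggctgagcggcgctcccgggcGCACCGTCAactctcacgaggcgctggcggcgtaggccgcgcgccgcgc

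Of 21 tested chaperones and related genes of the endoplasmic reticulum, 4 fell (beside 0.175% of all tested genes), 0 rose and the other 17 did not pass. In all, 17 had a negative fold change, and the median was -0.16. Calr, the calcium-binding chaperone calreticulin, ranged from 775 to 943 CPM at 50 μM (median 875) and from 599.7 to 819 CPM at 200 μM (median 701). In 9 of 10 libraries at 200 μM it lay below every library at 50 μM (-0.33, SE 0.0541, adjusted p = 0.00836). Hspa5, the master chaperone BiP, ranged from 535 to 709 CPM and from 460.1 to 618 CPM (-0.28, SE 0.0575, adjusted p = 0.0244). Sdf2l1 went from a median of 25.5 to 18.1 CPM (-0.53, SE 0.112, adjusted p = 0.0298) and Dnajb11, a co-chaperone of BiP, from 129.6 to 115 CPM (-0.16, SE 0.0351, adjusted p = 0.0425). Derl3, a component of the retrotranslocation of misfolded proteins that was outside the list, fell by 0.80 on the log2 scale (SE 0.16, adjusted p = 0.023), at under 1 CPM on average. Pdia4, a protein disulfide isomerase, was at 286 ± 23.5 and 238 ± 26 CPM and did not pass (adjusted p = 0.0615). The number of called members depended on single libraries. It was 1 without any 1 of replicates 6 and 9 at 50 μM or replicates 1, 2 and 3 at 200 μM, 2 without any 1 of replicates 2, 5 and 7 at 50 μM or replicates 5 and 10 at 200 μM, and 8 without replicate 8 at 200 μM. Calr passed in all 20 of these fits, Hspa5 in 14, Sdf2l1 in 11 and Dnajb11 in 3.

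The ER stress response element, CCAATNNNNNNNNNCCAC, was found in 11 of 18 windows of this list (61.1%) and in 0.32% of all windows. This motif was added after the fall of these genes had been seen. Of the 56 windows of genes that passed, 3 held it (5.36%), those of the lowered genes Hspa5, Calr and Derl3, and their stretches are given with the matched letters in capitals.
Hspa5, chr2:34771985-34772082, plus strand: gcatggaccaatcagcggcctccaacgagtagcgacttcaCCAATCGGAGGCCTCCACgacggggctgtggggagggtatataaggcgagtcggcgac
Calr, chr8:84847035-84847132, minus strand: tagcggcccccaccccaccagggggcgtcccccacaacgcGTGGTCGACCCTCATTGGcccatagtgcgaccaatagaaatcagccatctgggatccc
Derl3, chr10:75893203-75893300, plus strand: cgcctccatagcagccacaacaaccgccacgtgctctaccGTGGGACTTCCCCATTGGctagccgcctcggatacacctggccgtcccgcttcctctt
The match reads forward in Hspa5, 65 bases before the start, and in reverse in Calr and Derl3, 161 and 155 bases before it.

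Of 9 tested genes of heme synthesis, the initial enzyme alone passed. Alas1, 5-aminolevulinate synthase, lies at chromosome 9, 106233455 to 106248654, on the minus strand of GRCm38. It ranged from 41.6 to 54.6 CPM at 50 μM (median 47.5) and from 32.6 to 40.6 CPM at 200 μM (median 34.9), without overlap. It had the smallest p of all tested genes (-0.41, SE 0.0555, adjusted p = 0.00202). The other 8 genes, from Alad to Fech, had fold changes between -0.07 and 0.04. Part of the Alas1 exons (7.53% of their bases) is shared with a transcript on the opposite strand, and the strand setting of the counting is not given in the sources used here.

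Genes of heme breakdown and iron handling did not pass at this step. Of 12 tested genes of heme breakdown and transport and 23 of iron uptake, storage and export, 0 were called, and their medians were -0.02 and -0.01 on the log2 scale. Of them, 3 and 2 had an unadjusted p under 0.05 with edgeR, beside 13.3% of all tested genes. DESeq2 called 0 of the former list and 1 of the latter, Slc40a1 (adjusted p = 0.00874). Hmox1, the inducible heme oxygenase, ranged from 1785 to 4223 CPM at 50 μM (median 2393) and from 2245 to 4466 CPM at 200 μM (median 3363), with wide overlap (0.29, SE 0.155, adjusted p = 0.421). Its highest libraries at 50 μM were replicates 5 and 8, at 4223 and 4071 CPM, ahead of replicate 2 at 3275 CPM. Over the alternative fits the fold change of Hmox1 ran from 0.09 to 0.57, and it passed in 0 of them. Slc40a1, the iron exporter ferroportin, was at 43.2 ± 12.7 and 67 ± 15.3 CPM (0.63, SE 0.155, adjusted p = 0.0653). Without replicates 8 and 5 at 50 μM it was 0.81 and passed (adjusted p = 0.0154). Slc48a1, a heme transporter of lysosomes, was at 359 ± 49.8 and 395 ± 49 CPM (adjusted p = 0.504). The iron-store genes Fth1 and Ftl1, both of which are also NRF2 targets, had fold changes of 0.06 and -0.03.

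Among transcription factors and signalling genes, Fosl1 rose most. This AP-1 subunit, FRA-1, ranged from 8.88 to 12.7 CPM at 50 μM (median 10.5) and from 12.4 to 26.5 CPM at 200 μM (median 18.6). In 9 of 10 libraries at 200 μM it exceeded all of those at 50 μM (0.90, SE 0.126, adjusted p = 0.00206). It was the only called member of 20 tested AP-1 and immediate early genes, whose median was 0.17. Of its exon bases, 57.2% overlap Ccdc85b on the opposite strand, which itself had a fold change of -0.13 (adjusted p = 0.657). Myc rose by 0.39 (SE 0.0786, adjusted p = 0.023) and Cited2, a CBP/p300-binding regulator, by 0.48 (SE 0.0929, adjusted p = 0.0193). Eda2r, a receptor of the TNF receptor family and p53 target, rose by 0.42 (adjusted p = 0.028). With Sesn2, which is also on the ATF4 list, it made 2 of 17 tested p53 targets called higher (beside 0.222% of all tested genes). Of the 17, 0 were called lower (beside 0.175%), and 3 had a negative fold change. DESeq2 called 3 higher and 1 lower, Sesn1. The number of p53 targets called by edgeR was 0 without any 1 of replicates 2 and 7 at 50 μM or replicates 1, 2, 9 and 10 at 200 μM. It was 1 without replicate 1 or 9 at 50 μM or replicate 3 at 200 μM, and 4 without replicate 8 at 200 μM. Ifrd1, Rin1 and Trim66 rose by 0.28, 0.68 and 0.57. Rin1, a RAS effector, was carried by 9 libraries above the range at 50 μM and 1 below it, replicate 8 at 6.44 CPM. Rin1 passed in 5 of the 20 fits that left out 1 library and Ifrd1 in 8.

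The remaining raised genes belonged to several groups. Gnl2, Nop14 and Znhit6 encode factors of ribosome and small nucleolar RNP assembly and rose by 0.24, 0.26 and 0.32, from means of 61.5, 44 and 13.6 CPM to 72.7, 52.6 and 17 CPM. Hspa9, the mitochondrial HSP70, ranged from 325 to 401 CPM and from 405 to 489 CPM without overlap (0.27, SE 0.0475, adjusted p = 0.0101). Lss, lanosterol synthase, was the only one of 22 sterol synthesis genes to rise (0.19, SE 0.0397, adjusted p = 0.028), and it did not pass without any 1 of replicates 4 and 7 at 50 μM or replicates 1, 2, 3, 5 and 9 at 200 μM. Slc39a6, a zinc importer, rose by 0.20, Ttc9 by 0.27, Myo16, an unconventional myosin, by 0.30 and Btbd11 by 0.43, with adjusted p from 0.0193 to 0.0401. Of 31 proteasome subunits tested, 0 passed, although 30 had a positive fold change (median 0.11) and 18 had an unadjusted p under 0.05, beside 13.3% of all tested genes. DESeq2 called 4 of them. Of 9 genes of the EGF ligand list, 0 passed with edgeR and the median was 0.31. Of them, 5 had an unadjusted p under 0.05, beside 13.3% of all tested genes, and 1 was called by DESeq2.

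Among the lowered genes outside the chaperones, Scrg1 ranged from 31 to 40.3 CPM at 50 μM (median 33.5) and from 18.6 to 28.7 CPM at 200 μM (median 25.4), without overlap (-0.44, SE 0.0709, adjusted p = 0.00693). Aldoc, the astrocytic aldolase, went from 420.0 to 615 CPM to 292 to 447 CPM (-0.38, SE 0.0773, adjusted p = 0.0237). Ndrg2, also abundant in astrocytes, ranged from 308 to 427 CPM and from 233 to 314 CPM (-0.32, SE 0.0636, adjusted p = 0.023). Abat, the GABA transaminase, ranged from 108 to 156 CPM and from 79.2 to 107 CPM without overlap (-0.38, SE 0.0702, adjusted p = 0.0189). Aldoc was the only member of 15 tested astrocyte markers called by edgeR, while DESeq2 called 3 lower (Aldoc, Glul and Slc1a2). Of the 15, 14 had a negative fold change (median -0.23), and Aldoc did not pass without replicate 8 at 50 μM or without any 1 of replicates 1, 2 and 3 at 200 μM. The astrocyte transcripts together summed to 13425 to 17911 CPM at 50 μM and 11831 to 17358 CPM at 200 μM, and its part in the values of single genes was not tested. In bulk tissue, fewer cells of a type and less RNA per cell cannot be told apart.

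Fkbp5, a co-chaperone of steroid receptors that glucocorticoids induce, ranged from 69.7 to 90.1 CPM at 50 μM (median 78.1) and from 58.3 to 67.2 CPM at 200 μM (median 62.4). Its groups did not overlap (-0.35, SE 0.0476, adjusted p = 0.00202). Ggta1, an alpha-galactosyltransferase, ranged from 99.998 to 125 CPM and from 86.1 to 98.4 CPM without overlap (-0.29, SE 0.0421, adjusted p = 0.00297). Hif3a, a hypoxia-inducible factor subunit, fell by 0.74 (SE 0.144) and Slc10a6, a transporter of steroid sulfates, by 0.80 (SE 0.166). Both were low, at 10.7 ± 2.99 and 6.44 ± 1.16 CPM for Hif3a and 2.55 ± 0.683 and 1.46 ± 0.369 CPM for Slc10a6. Sorl1, a sorting receptor, fell by 0.37, Apcdd1, an inhibitor of WNT signalling, by 0.36, and Rin2, a RAB5 regulator, by 0.29, with adjusted p from 0.0092 to 0.023. Nkain4 fell by 0.58, Nkain2 by 0.21, Acot11, an acyl-CoA thioesterase, by 0.29, Gpr146 by 0.27 and Slc9a3r1, a scaffold protein, by 0.26. Phyhd1 fell by 0.39 and Gm28035 by 0.21, but these are not independent. Gm28035 shares 67.3% of its exon bases with Lrrc8a and 29.5% with Phyhd1 on the same strand. Phyhd1 in turn shares 47% of its exon bases with Gm28035, so the values of both are uncertain. The metallothioneins Mt1 and Mt2, which bind zinc and copper, were at 804 ± 104 and 750.1 ± 101 CPM at 50 μM and at 619 ± 90.1 and 591 ± 93.4 CPM at 200 μM, and did not pass (adjusted p = 0.054 and 0.0963).

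Markers of myeloid cells had mostly negative fold changes without passing the test. Of 18 tested markers of homeostatic microglia, 0 passed, 17 had a negative fold change and the median was -0.68, and 14 had an unadjusted p under 0.05 with edgeR (13.3% of all tested genes did), while DESeq2 called 2. All 10 markers of border-associated macrophages had negative fold changes (median -0.56), with 0 past the adjusted threshold, 7 at an unadjusted p under 0.05 and 3 called by DESeq2. The microglial markers summed to 1134 to 3492 CPM at 50 μM (median 1621) and 727 to 1804 CPM at 200 μM (median 1294), with wide overlap. Siglech and Slc2a5 fell under the filter on low counts. The 2 highest sums belonged to replicates 5 and 8 at 50 μM, at 3492 and 2814 CPM. These are the same 2 libraries that stood apart on the first principal component, and without them the median of the microglial list was -0.38. Without replicate 2 at 50 μM as well, that median was -0.30. It was -0.93 in the M libraries alone and -0.37 in the W libraries alone. Csf1r, the receptor on which microglia depend, was at 56.1 ± 24.6 and 35.6 ± 10.8 CPM (-0.65, SE 0.215, adjusted p = 0.192). Ms4a6c, of a gene family expressed in myeloid cells, did pass, at 7.02 to 22.1 CPM (median 13.1) against 4.73 to 10.2 CPM (median 6.51), a fall of 0.99 on the log2 scale (SE 0.184, adjusted p = 0.0189). Without replicates 8 and 5 it was -0.78 (adjusted p = 0.0408), and without replicate 2 at 50 μM as well, -0.71 (adjusted p = 0.0655). An opposite-strand gene overlaps 53.1% of its exon bases. Npl, N-acetylneuraminate lyase, fell by 0.46 (SE 0.096, adjusted p = 0.028), and without replicates 8 and 5 its adjusted p was 0.0956. The part of the myeloid content in these 2 values was not tested. Neuronal markers summed to 718 to 1870 CPM and 719.7 to 1003 CPM, with 0 of 19 tested passing, 0 at an unadjusted p under 0.05 and 0 called by DESeq2. Of these 19, 16 had a negative fold change (median -0.20). So had 13 of 14 markers of meningeal fibroblasts and collagens (median -0.26) and 12 of 16 of endothelium and pericytes (-0.20). The same held for 15 of 19 of the oligodendrocyte lineage (-0.13) and 6 of 8 of choroid plexus and ependyma (-0.10). In each of these lists 0 passed.

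**Figure D3:**
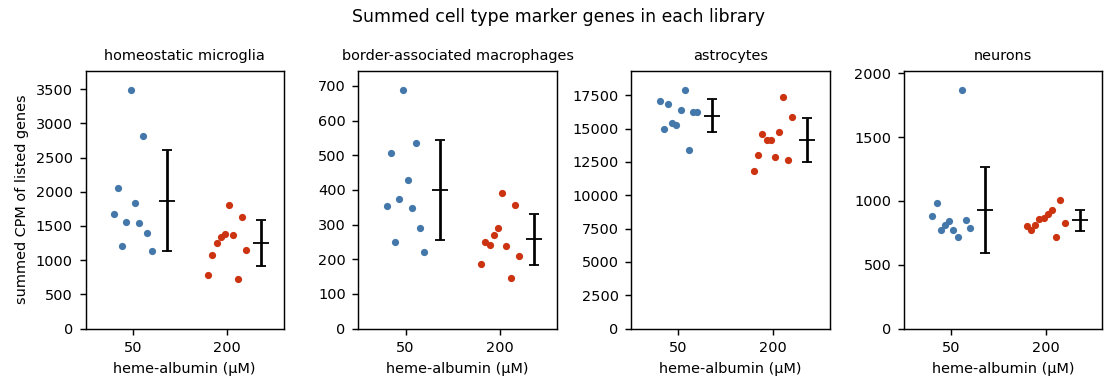
Summed CPM of the markers of 4 cell types in each library (points) with mean and SD (bars). The microglial sums run from 1134 to 3492 CPM at 50 μM and from 727 to 1804 CPM at 200 μM, and the highest neuronal sum, 1870 CPM, belongs to replicate 8 at 50 μM.

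**Figure D4:**
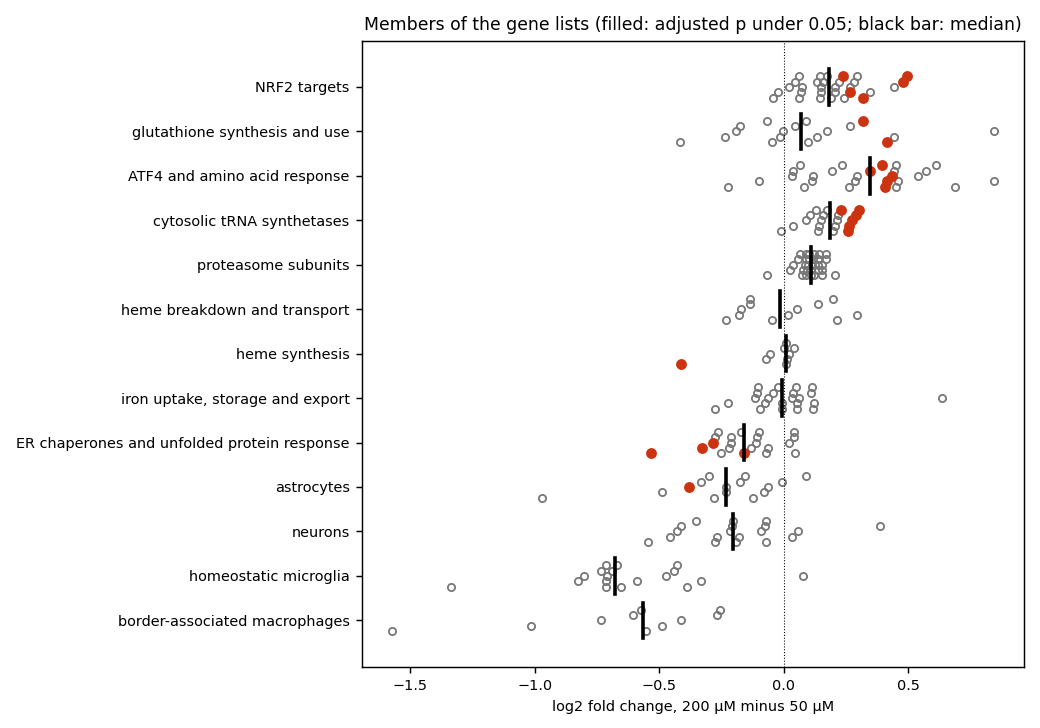
Log2 fold change (200 μM minus 50 μM) of every tested member of 13 gene lists, with filled points for members past an adjusted p of 0.05 and a black bar for the median. The ATF4 list has a median of 0.35, the ER chaperones of -0.16 and the microglial markers of -0.68, with 0 filled points in the last.

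Of the genes listed here because the study names them, Gclm alone passed at this step. The study describes Nqo1, Gclm, Gstm1, Slc48a1 and Slc40a1 as induced by heme-albumin against unexposed control, which is a different contrast. It names Gpr84 and Tnfrsf1a as markers of microglial activation under free hemoglobin, and mentions Cd163 and Lrp1 when discussing uptake. The values that follow compare the 2 doses of heme-albumin. Nqo1, the NADPH quinone reductase, ranged from 13.8 to 20.3 CPM and from 16.4 to 22.4 CPM (0.22, SE 0.0721, adjusted p = 0.183), and Gstm1, a glutathione transferase, from 285 to 391 CPM and from 310.1 to 453 CPM (0.14, adjusted p = 0.388). Gpr84, a myeloid fatty acid receptor, was at 1.89 to 14.1 CPM and 1.02 to 3.61 CPM (adjusted p = 0.26), and Tnfrsf1a, a receptor of tumour necrosis factor, differed by 0.01 (SE 0.0372, adjusted p = 0.962). The scavenger receptors Cd163 and Lrp1, which take up hemoglobin-haptoglobin and heme-hemopexin, had fold changes of -1.01 (SE 0.238, adjusted p = 0.0613, and 0.00493 with DESeq2) and -0.21 (SE 0.0949, adjusted p = 0.334). Ptgs2, cyclooxygenase 2 and a member of the cytokine list, was at 19 ± 4.82 and 37.7 ± 20.2 CPM (0.99, SE 0.237, adjusted p = 0.0615), with a range of 18.7 to 80.4 CPM at 200 μM.

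With edgeR, no gene passed a test for a different step in M and W libraries. In that edgeR test of dose by letter, 0 of 14855 genes passed (0%, smallest adjusted p = 0.808) and 715 had an unadjusted p under 0.05 (4.81%). DESeq2 called 2. Within the letters, with 5 libraries a dose, edgeR called 0 genes in either. At an unadjusted p under 0.05 there were 2259 of 14732 genes among the M libraries and 645 of 14993 among the W libraries. The M count lies above the share of 0.05 that chance gives and the W count below it. The cause of this difference was not tested. For Alas1 the difference between letters, W minus M, was 0.22 (SE 0.104, adjusted p = 0.808), for Srxn1 0.02 (SE 0.192) and for Asns -0.04 (SE 0.148).

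The 5 doses from 0 to 400 μM, 10 libraries each, and 10 libraries with heme-hemopexin formed a sequencing batch of 60 libraries, over which the CPM of the dose series were scaled. In 1 fit of all 60 libraries the step from 50 to 200 μM called 124 of 15554 genes (0.797%). The step from 0 to 12.5 μM called 7 (0.045%), that from 12.5 to 50 μM called 0 (0%) and that from 200 to 400 μM called 197 (1.27%). From 12.5 to 50 μM 196 genes had an unadjusted p under 0.05. Neighbouring steps share libraries, so their values are given side by side, and the steps also differ in width. A test of the difference between the step from 50 to 200 μM and the step before it called 0 of 15554 genes (321 at an unadjusted p under 0.05), and that against the step after it called 0 (399). Without the filter on low counts the former test called 9 genes and the latter 0, and DESeq2 was not run for these differences. The counts of 321 and 399, like the 196 above, lie below the share of 0.05 that chance gives. The 0 calls therefore do not show that the steps were equal.

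Levels along the series are given side by side, with no test of a difference between genes in the dose at which they moved. Alas1 was at 67.9 ± 3.66, 53.9 ± 3.43, 47.6 ± 4.25, 35.8 ± 2.82 and 35.6 ± 4.21 CPM at 0, 12.5, 50, 200 and 400 μM. It had thus fallen by the lowest dose (-0.33, adjusted p = 0.00617) and its fold change from 200 to 400 μM was -0.01 (adjusted p = 0.977). Gclm was at 119 ± 13.1, 149 ± 17.8, 183 ± 18.1, 229 ± 20.6 and 254 ± 19.3 CPM, and Hmox1 at 1349 ± 551, 1852 ± 426, 2746 ± 834, 3372 ± 704 and 4585 ± 1279 CPM. Hmox1 and Gclm therefore already stood above the unexposed level at 50 μM, by 1.03 (adjusted p = 0.000414) and 0.63 (adjusted p = 6.02e-10). Asns stood at 65.2 ± 7.22, 72.3 ± 5.77 and 73 ± 7.36 CPM up to 50 μM and then at 98.8 ± 12.6 and 128 ± 26.1 CPM. Scrg1 was at 37 ± 1.80, 35.4 ± 1.96 and 34.5 ± 3.44 CPM and then at 25.3 ± 3.01 and 19.3 ± 3.35 CPM. Fosl1 rose further from 200 to 400 μM, from 20.0 ± 5.09 to 36.5 ± 12.7 CPM (0.87, adjusted p = 0.000211). Hspa5 was at 687 ± 18 CPM without heme, 637 ± 50.3 CPM at 50 μM, 524.5 ± 47.3 CPM at 200 μM and 494 ± 46.2 CPM at 400 μM.

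The step from 0 to 12.5 μM shares no library with the step from 50 to 200 μM, but the codes in the library names recur at these doses. Whether the steps share animals is not given in the sources used here. Genes of a list can move together, so their signs are not separate observations. Of the 59 genes, 54 had the same sign in both steps, 31 of the 33 that rose and 23 of the 26 that fell, against 51.6% of the 14855 genes tested. Their changes at the lower step were small, with medians of 0.11 and -0.06 on the log2 scale, and 5 of them passed there, namely Alas1, Gclm, Srxn1, Osgin1 and Ephx1.

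**Figure D5:**
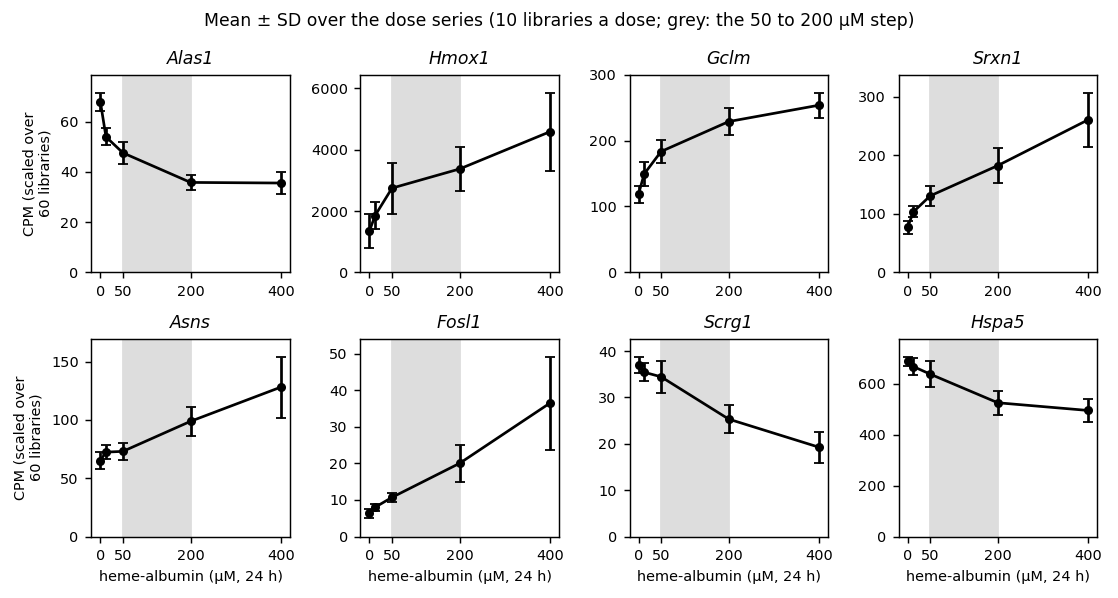
Mean and SD of CPM (10 libraries a dose, scaled over 60 libraries) against the dose of heme-albumin for 8 genes, with the step from 50 to 200 μM in grey. Alas1 declines from 67.9 CPM at 0 μM to 35.8 CPM at 200 μM and stays there, whereas Asns lies between 65.2 and 73 CPM up to 50 μM and at 98.8 CPM at 200 μM.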

How the data were processed

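Bulk RNA was sequenced from poly(A)-selected TruSeq libraries of brain-slice cultures, and the values deposited by the authors are raw counts of reads for each Ensembl gene. The submitters' processing notes name featureCounts and GRCm39, and the aligner and the strand setting are not given in the sources used here. Gene symbols, overlaps and gene positions were taken from GENCODE M21 on GRCm38, so no position was read from the files.

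Counts of 25655 genes in 20 libraries were filtered (filterByExpr, smallest count 10, smallest total count 15), scaled by TMM and tested with edgeR 4.0.16 (limma 3.58.1, R 4.3.3), without covariates and with Benjamini-Hochberg adjustment at 0.05. The SE of a log2 fold change was obtained from its F statistic. Levels at other doses and differences between dose steps came from 1 fit of the 60 libraries of the sequencing batch. The other 128 libraries were not used here. The code was tested on simulated data. DESeq2 1.42.0, RLE scaling, other filters, a term for the letter, blocks, subsets and leave-one-out fits were the alternatives.

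The comparison and the gene lists were chosen with earlier results of these data known. Genes are named if the study names them, if they are among the 10 raised or lowered most (mean of at least 1 CPM) or the 5 with the smallest p in either direction, if they are among the 6 members of a list with the smallest p, and, for the rest of the 59, because they passed. Ccdc85b, Lrrc8a and the genes of the first component, Fth1, Ftl1, Alad, Fech, Glul, Slc1a2, Siglech and Slc2a5 were named after their values were seen. The labels do not say whether libraries of a dose came from different animals, and p-values measure the spread between libraries.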

Additional observations from a re-analysis of the deposited data

Results flagged for a closer look

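In 15 of 194 sets of 10 libraries (97 genes at each dose), the most extreme library stood apart from the others of its dose by more than Dixon's 95% limit on the log2 scale. Chance gives about 1 in 20. At 200 μM, replicate 8 accounted for 6 of them. It was lowest for Rin1 (6.44 CPM, next 12.5 CPM) and Slc48a1 (279 CPM, next 365 CPM). It was highest for Psmc6 (131 CPM), Psmd12 (112 CPM), Hsp90b1 (619.8 CPM, next 503 CPM) and Aqp4 (641 CPM, next 467 CPM). Over the 59 genes it was the library of its dose nearest to the 50 μM level 19 times, more often than any other. Replicate 1 at 200 μM was lowest for Scrg1 (18.6 CPM), Mt2 (399 CPM) and Gpr84 (1.02 CPM) and highest for Slc39a6 (107 CPM). At 50 μM, replicate 8 was lowest for Eda2r (11.1 CPM) and Acot11 (54.4 CPM), replicate 4 was highest for Ptgs2 (31 CPM) and Gpr84 (14.1 CPM, next 4.63 CPM), and replicate 1 was lowest for Tnfrsf1a (245 CPM).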

How the results depend on the processing

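No called gene changed sign under any alternative. Among the 59 calls, 56 were shared with RLE scaling, 54 with no filter, 58 with a stricter filter and 54 with the letter as a term. DESeq2 called 305 of 14855 genes (150 higher, 155 lower), with 11 ATF4 genes, 11 synthetases and 8 ER chaperones, and 2 genes for dose by letter. The fit of 60 libraries called 124 (67 and 57), with 7 ER chaperones. The M libraries alone and the W libraries alone gave 0 calls in either direction and 0 in each of the NRF2, ATF4, synthetase and ER lists, with 5 libraries a dose. Without a filter the difference from the step below called 9 genes. Without the 2 libraries farthest on the first component, an alternative chosen after seeing the data, 43 genes passed (17 lower), and without 3 libraries 46 passed, with 3 synthetases. Tnfrsf1a, which never passed, turned to -0.000476 in the W libraries and to -0.00556, -0.00679 and -0.00297 without replicate 1 at 50 μM, replicate 7 or replicate 9 at 200 μM (-0.00679 to 0.0238 over the fits that left out 1 library).

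Leaving out each library in turn gave 33 to 106 calls, 19 to 61 higher and 14 to 45 lower. The lists had 4 to 7 (NRF2), 3 to 11 (ATF4), 4 to 8 (synthetases) and 1 to 8 (ER) called members. Their medians ran from 0.17 to 0.19, 0.31 to 0.37, 0.17 to 0.20 and -0.17 to -0.14, those of microglia from -0.79 to -0.48 and of astrocytes from -0.29 to -0.18.

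Libraries of the doses share replicate numbers, but same-numbered libraries correlated between -0.617 and 0.451, above 0.1 in 6 of 10 pairs, and 2 of 10 correlated best with their own number, so the numbers were not taken to pair them. The numbers do not follow the codes in the library names throughout. The 11 pairs with the same code correlated between -0.416 and 0.451 (median 0.244) and the 89 other pairs had a median of -0.017, and the 5 same-code pairs of M libraries reached 0.106 to 0.384. Whether a code marks an animal is not given in the sources used here, so pairing by code cannot be told from these labels. With the replicate number as a block 15 genes passed (5 higher, 10 lower; 12 of the 59), with 1 NRF2 and 1 ATF4 gene and 0 synthetases and ER chaperones. With the code in the library name as a block 11 passed (3 and 8; 10 of the 59), with 2 NRF2 genes and 0 of the other lists. The cause of these differences was not tested.

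Depths of 13421393 to 35597838 counts left 14855 of 25655 listed genes for testing, and lower genes were not assessed.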
